A study of Mus musculus with 6 samples.

Results

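The 29 genes described here are genes of the neuroectoderm and of neurons, chosen by symbol from a fixed list, among 53465 genes counted in each library. They were grouped by role into neural plate and progenitor transcription factors, progenitor proteins, proneural factors, SoxC factors, neuronal cytoskeleton genes, neuronal Elav RNA-binding proteins and neural adhesion molecules. Neuroectoderm is the sheet of embryonic cells that forms the brain and spinal cord. BMP ligands turn early ectoderm away from this fate, and secreted antagonists such as noggin allow it. In mouse embryonic stem cells, BMP4 with the cytokine LIF is known to hold back neural differentiation, in part through Id proteins, which block the basic helix-loop-helix (bHLH) factors that start it.

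The cells were of Royan B20, an established mouse embryonic stem cell line, passaged 7 times on 0.1% gelatin in R2i medium with LIF. Both groups received R2i, that is 1 µM PD0329501 (so spelled in the labels), which blocks the kinase MEK, and 10 µM SB431542, which blocks the type I receptors for activin, nodal and TGF-beta. The R2i control group (3 libraries) had no other inhibitor. The BMP-inhibited group (3 libraries) also received 250 nM noggin and dorsomorphin at 5 µM, a compound that blocks BMP receptor kinases. Replicates within a group are biological according to the labels, and how long the BMP inhibitors were present was not given in the sources used here. All cells came from the same line, and no genotype differs between the groups. The comparison asks whether neural genes were higher when BMP inhibitors were added to R2i.

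Polyadenylated RNA was sequenced, and gene counts totalled 31474666 to 35322844 per library. Levels are given as CPM (counts scaled to a common library size) after TMM scaling, a correction for library composition, and a gene was called where edgeR's quasi-likelihood test gave a Benjamini-Hochberg adjusted p under 0.05 over all genes tested. All 12 embryonic stem cell markers were abundant in every library, with a summed level of 5917 to 6067 CPM in controls and 5236 to 5532 CPM with BMP inhibitors. Of the 12, 7 were lower (58.3%) and 2 higher (16.7%), beside 31.7% and 32.5% of all genes tested. Klf4 and Fgf4 had log2 fold changes of -0.81 and -0.76, and Utf1 and Dppa5a of 0.87 and 0.83. Pou5f1 was at 825 ± 32.8 and 887 ± 65.3 CPM (SD, n = 3) and did not pass (adjusted p = 0.0809, from edgeR), Nanog fell from 887 ± 10.9 to 639.9 ± 12.0 CPM, and Sox2 is given with the Sox genes. Of 6 textbook targets of SMAD factors downstream of BMP, which the signal raises, 4 (66.7%) were higher with BMP inhibitors and none was lower. Of all genes tested, 32.5% were higher and 31.7% lower. The direction of these 4 goes against the label, so that "BMP-inhibited" here names the treatment and not a measured loss of signalling. Id1 had a log2 fold change of 2.11 (SE 0.18), Id2 of 0.94 (SE 0.07) and Smad7 of 0.46 (SE 0.12), while Id4 (-0.02) and Smad6 (0.36) did not pass. Id3 was at 0.21 (SE 0.08, adjusted p = 0.0322), a call lost without any 1 control library (adjusted p = 0.0717 to 0.107) or without BMP-inhibited replicate 2 (0.151). Summed levels of markers of other cell types also differed between the groups. The counts of higher genes given with them stand beside 32.5% of all genes tested. For 9 trophectoderm markers the sum was 172.8 to 176.6 CPM in controls and 307.5 to 389.5 CPM with BMP inhibitors, with 5 of 7 tested genes higher, or 4 of 6 without Hand1, which passed the count filter only through the BMP-inhibited libraries. The sum over 7 markers of the 2-cell-like state was 0.0276 to 0.146 and 15.9 to 24.2 CPM. Over 8 neural crest markers it was 36.8 to 41.4 and 46.9 to 54.9 CPM, most of it Foxd3 (means of 30.4 and 39.5 CPM). Of 6 tested, 3 were higher, among them Sox10 at 10 to 20 counts per control library. Over 8 fibroblast markers the sum was 5.76 to 7.15 and 9.59 to 9.70 CPM, with 2 of 4 tested higher, Col1a1 (133 and 329 counts over the control and BMP-inhibited libraries) and Postn (2 and 47), the latter again passing only through the BMP-inhibited libraries. Below the filter, Col3a1 had 0 and 24 counts, Col1a2 6 and 20, and Dcn and Lum 2 counts and 1 count over all 6 libraries. The part of such cells in the neural results was not tested, and in these bulk libraries fewer cells of a type cannot be told apart from less RNA per cell.

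More of the neural genes were lower than higher with BMP inhibitors. Of the 29 genes, 22 passed the count filter and 7 had too few counts to be tested. Of the 22, 5 rose (22.7%) and 12 fell (54.5%), where 32.5% of all 15951 genes tested rose and 31.7% fell. In either direction 17 of 22 were called (77.3%), beside 64.2% of all genes tested, so that a call by itself was common. The libraries of the groups did not overlap for the same number of neural genes, 17 of 22 (77.3%), beside 68.6% of all genes tested. The median log2 fold change of the 22 was -0.46, beside -0.003 for all genes tested, and single genes lay between -1.55 and 1.79. All 22 had at least 19 counts in each library, so none passed the filter through 1 group alone. Changes of 2-fold or more were called in 2 genes that rose and 5 that fell, beside 8.01% and 7.46% of all genes tested. The summed level of the 29 genes was 996.7 to 1016 CPM in controls and 770.2 to 885.8 CPM with BMP inhibitors.

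**Figure D1:**
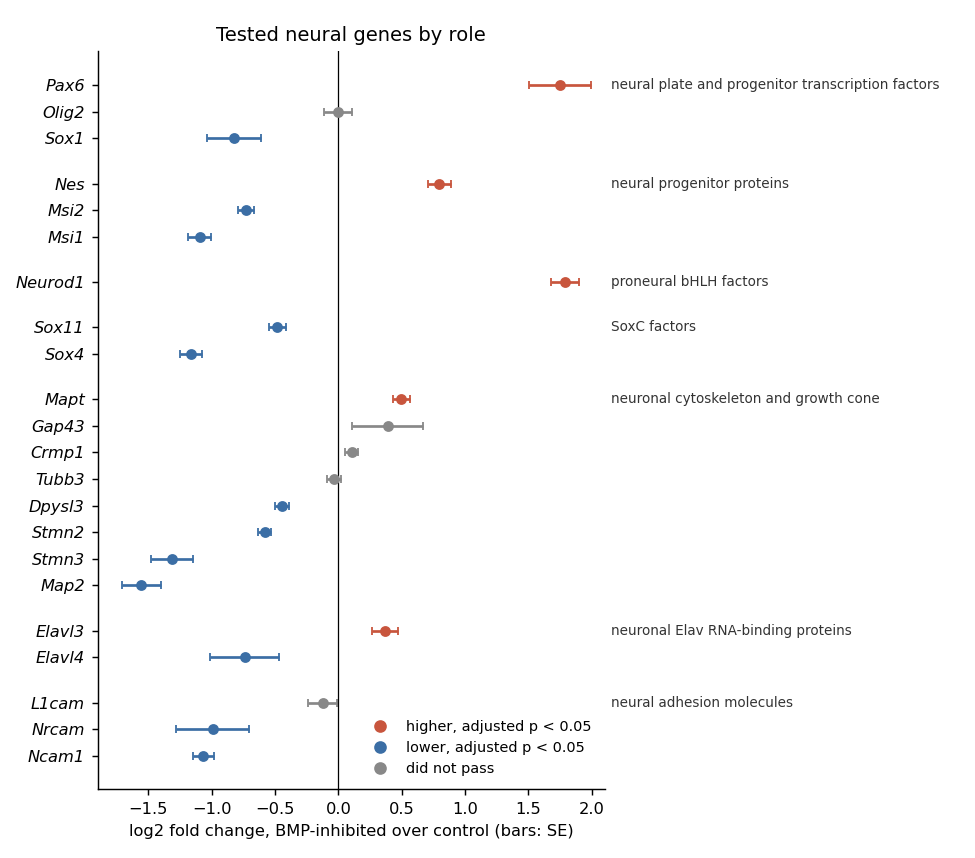
Log2 fold change of each of the 22 tested neural genes, BMP-inhibited over control, grouped by role; bars are standard errors from the fit over 3 libraries per group, and colours give the call at an adjusted p of 0.05. The 5 red genes lie between 0.37 and 1.79 and the 12 blue genes between -1.55 and -0.44.

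The 7 genes that could not be tested include several that define neural cells. Fabp7, a fatty acid-binding protein of radial glia, had 0 counts in all 6 libraries, which allows up to 0.029 CPM over the control libraries and 0.0316 CPM over the BMP-inhibited ones (3 counts of each group's total, counting error only). Dcx, the microtubule-associated protein doublecortin of migrating neurons, had 1 count in each group. Hes5, a bHLH repressor that NOTCH signalling switches on in neural progenitors, had 3 control and 2 BMP-inhibited counts, and antisense exons of Gm20421 cover 31.8% of its exon length. These genes were at or near 0 in both groups, and no change was detectable at this depth.

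The other genes below the filter also stayed under 1 CPM in every library. Zic1, a zinc-finger factor of the dorsal neural tube, had 10 control counts (5, 3 and 2) and 31 BMP-inhibited counts (6, 14 and 11), a ratio of 3.38 (exact 95% counting interval 1.62 to 7.73). Pax3, a paired-box factor of the dorsal neural tube and neural crest, had 6 (1, 2 and 3) and 22 (7, 5 and 10), a ratio of 4.0 (1.57 to 12.1). Neurog2, the proneural factor neurogenin 2, had 2 (1, 1 and 0) and 12 (7, 1 and 4), a ratio of 6.55 (1.46 to 60.2). Pax7, the close relative of Pax3, had 13 (8, 3 and 2) and 15 (2, 2 and 11), a ratio of 1.26 (0.559 to 2.87), with most of the latter in 1 library. These intervals cover counting error and not the spread between cultures. For Zic1, Pax3 and Neurog2 no BMP-inhibited library was below a control, and for Pax7 the groups overlapped.

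The Hes5 promoter is printed because it holds matches to 4 of the 5 motifs searched while the gene stayed near 0 in every library. Promoter sequences were taken from RefSeq on GRCm38.p6, which matched 22 of the 29 genes and not Pax3, Msi1, Mapt, Stmn2, Dpysl3, Gap43 or Ncam1. The 250 bases before each listed start were searched on both strands for TGGGAA (the core letters read by RBPJ, the DNA-binding partner of NOTCH), CAGCTG (an E-box read by bHLH factors), GGCGCC (a GC-rich SMAD motif), ACAAAG (a SOX motif) and a second SOX motif, ACAATG. The E-box and the SMAD motif read the same on both strands. Among 32851 RefSeq promoters of the same length, 21.6% hold the RBPJ letters, 13.0% the E-box, 9.59% the SMAD motif, 16.5% the first SOX motif and 10.7% the second. Among the 22 matched neural genes, in the same order, 3, 4, 3, 5 and 4 hold them at 1 or more of their 31 listed starts. The shares are per promoter and these counts per gene, and a gene with several starts has more chances to match, so they are not directly comparable. A match is a description of letters and not of a bound site. In the Hes5 stretch below (chr4:154960673-154960922, plus strand, the 250 bases before the start, 5′ to 3′), capitals mark the matches. TGGGAA begins 82 bases before the start and, as TTCCCA on this strand, 226 bases before it. GGCGCC occurs 4 times, from 123, 106, 69 and 54 bases before the start, the first of which overlaps CTTTGT, the first SOX motif on the other strand. The second SOX motif on the other strand, CATTGT, occurs at 211 and 172 bases.
Hes5: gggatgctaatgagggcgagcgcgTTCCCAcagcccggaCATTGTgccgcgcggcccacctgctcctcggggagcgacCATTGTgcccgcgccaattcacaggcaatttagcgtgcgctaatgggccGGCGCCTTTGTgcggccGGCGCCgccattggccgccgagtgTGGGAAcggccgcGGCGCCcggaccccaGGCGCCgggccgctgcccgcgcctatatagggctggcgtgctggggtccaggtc

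The neural plate transcription factors moved in different directions. Pax6 (ENSMUSG00000027168, GRCm38 chromosome 2, 105668900 to 105697364), a paired-box factor of the neural tube and eye, was at 0.673, 1.10 and 0.905 CPM in control replicates 1 to 3 and at 3.13, 2.41 and 3.53 CPM in BMP-inhibited replicates 1 to 3. Every BMP-inhibited library was above every control, and Pax6 rose (log2 fold change 1.75, SE 0.25, adjusted p = 1.31e-05, edgeR). Its level stayed low, at 75 to 116 counts per BMP-inhibited library against 23 to 40 per control.

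Sox1 (ENSMUSG00000096014, GRCm38 chromosome 8, 12395295 to 12400126), a SoxB1 factor that is the usual marker of the neural plate, went the other way. It was at 6.61, 7.42 and 6.78 CPM in controls and 3.26, 5.87 and 2.65 CPM in BMP-inhibited libraries, and it fell (log2 fold change -0.82, SE 0.21, adjusted p = 0.00302, edgeR). The groups did not overlap, but BMP-inhibited replicate 2 lay close to the controls and the other replicates well below them. Without that library the log2 fold change of Sox1 was -1.23 (adjusted p = 1.36e-06, edgeR).

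Olig2 (ENSMUSG00000039830, GRCm38 chromosome 16, 91225457 to 91228677), a bHLH factor of motor neuron and oligodendrocyte progenitors, was expressed in both groups. It was at 51.2, 47.9 and 48.3 CPM in controls and 43.6, 62.3 and 41.3 CPM with BMP inhibitors, so BMP-inhibited replicate 2 was above all controls and the other 2 BMP-inhibited libraries below them. Olig2 missed the threshold (edgeR adjusted p = 0.986, log2 fold change -0.003, SE 0.11), and without BMP-inhibited replicate 2 it was called lower (log2 fold change -0.21, adjusted p = 0.00352). Its neighbour Olig1, a related bHLH gene 41.1 kb away on chromosome 16, fell (log2 fold change -0.71, SE 0.09, adjusted p = 5.80e-06, edgeR), from 51.8, 53.9 and 48.9 CPM to 28, 37.9 and 28.8 CPM, again with the highest BMP-inhibited value in replicate 2.

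Of the listed proneural bHLH factors Neurod1 and Neurog2, which start neuronal differentiation, only Neurod1 had enough counts to test. Neurod1 (ENSMUSG00000034701, GRCm38 chromosome 2, 79452521 to 79456751) acts in neurons and in pancreatic endocrine cells. It was at 4.74, 4.47 and 4.07 CPM in controls and 14.0, 16.3 and 15.6 CPM with BMP inhibitors, and it rose (log2 fold change 1.79, SE 0.11, adjusted p = 1.59e-09, edgeR), the largest rise among the 22 genes. The lowest BMP-inhibited library was well above the highest control. Its exons overlap those of Cerkl on the same strand over 7.37% of their length, and Cerkl did not pass (log2 fold change 0.02).

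The progenitor proteins split between a filament gene and RNA-binding proteins. Nes, which encodes nestin, an intermediate filament of neural stem cells that other proliferating cells also make, was at 12.0, 10.5 and 12.8 CPM in controls and 21.5, 19.1 and 20.5 CPM with BMP inhibitors, and rose (log2 fold change 0.80, SE 0.09, adjusted p = 1.67e-06, edgeR). The Musashi genes encode RNA-binding proteins that regulate translation in neural stem cells. Msi1 (ENSMUSG00000054256, GRCm38 chromosome 5, 115429599 to 115455698) fell from 62.1, 60.6 and 60.1 CPM to 24.3, 34.1 and 27.2 CPM (log2 fold change -1.09, SE 0.09, adjusted p = 4.01e-08, edgeR). Msi2, which is more widely expressed in stem cells, fell from 97.6, 104 and 101 CPM to 64.2, 64.4 and 54.3 CPM (log2 fold change -0.73, SE 0.06, adjusted p = 6.27e-08, edgeR). No library of the groups overlapped for these 3 genes.

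Both SoxC genes fell. SoxC factors act in progenitors that leave the cell cycle and in young neurons, and also in many tissues outside the nervous system. Sox4 (ENSMUSG00000076431, GRCm38 chromosome 13, 28948919 to 28953713) was at 23.7, 25.3 and 25.9 CPM in controls and 11.6, 12.0 and 9.84 CPM with BMP inhibitors (log2 fold change -1.16, SE 0.09, adjusted p = 1.78e-08, edgeR). Sox11 (ENSMUSG00000063632, GRCm38 chromosome 12, 27334264 to 27342574) was at 48.1, 48.2 and 41.8 CPM and 34.2, 33.1 and 31.6 CPM (log2 fold change -0.48, SE 0.07, adjusted p = 1.36e-05, edgeR). The groups did not overlap for either gene. Antisense exons of Gm26735 cover 54.6% of Sox4's exon length. Gm26735 itself had 6 control counts and 1 BMP-inhibited count, and whether counting used strand was not given in the sources used here, so the level of Sox4 is uncertain.

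The promoters of this pair are shown because both genes fell and both stretches hold the E-box CAGCTG, which 4 of the 22 matched neural genes have. It begins 211 bases before the RefSeq start of Sox4 and 210 bases before that of Sox11. The Sox4 stretch (chr13:28953714-28953949, minus strand, ending 15 bases before the start, where an annotated exon begins) also holds TGGGAA at 100 bases. The Sox11 stretch is chr12:27342719-27342968, minus strand. The RefSeq start of Sox11, at 27342718, lies outside the annotated gene (27334264 to 27342574). Bases just after that start were found in no annotated transcript of the gene, so the positions of the 2 E-boxes rest on unlike starts. Capitals mark the matches, 5′ to 3′.
Sox4: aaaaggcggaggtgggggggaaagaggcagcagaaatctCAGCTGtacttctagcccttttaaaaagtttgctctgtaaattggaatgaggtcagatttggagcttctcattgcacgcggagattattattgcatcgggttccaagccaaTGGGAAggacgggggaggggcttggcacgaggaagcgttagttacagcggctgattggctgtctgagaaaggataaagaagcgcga
Sox11: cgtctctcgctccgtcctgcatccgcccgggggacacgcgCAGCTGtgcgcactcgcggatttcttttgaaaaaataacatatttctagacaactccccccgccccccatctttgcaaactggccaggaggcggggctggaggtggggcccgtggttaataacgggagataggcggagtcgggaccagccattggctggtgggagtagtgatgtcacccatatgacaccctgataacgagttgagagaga

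Among 9 genes of the neuronal cytoskeleton and growth cone, 4 fell, 1 rose, 3 did not pass and Dcx was not tested. These counts stand beside 31.7% of all genes tested that fell and 32.5% that rose. Map2 (ENSMUSG00000015222, GRCm38 chromosome 1, 66175273 to 66442583), the dendritic microtubule-associated protein, had the largest fall of the 22 genes. It was at 5.53, 5.60 and 5.79 CPM in controls and 1.84, 2.09 and 1.83 CPM with BMP inhibitors (log2 fold change -1.55, SE 0.15, adjusted p = 3.34e-07, edgeR), with 57 to 65 counts in each BMP-inhibited library. Stmn3, a neuronal stathmin that destabilises microtubules, went from 6.52, 6.73 and 5.10 CPM to 2.1, 2.83 and 2.47 CPM (log2 fold change -1.31, SE 0.17, adjusted p = 4.91e-06, edgeR).

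A more abundant stathmin and a collapsin response gene also fell. Stmn2, the stathmin of growing axons, fell from 228, 225 and 219 CPM to 142, 162 and 144 CPM (log2 fold change -0.58, SE 0.05, adjusted p = 8.38e-08, edgeR). Dpysl3, a collapsin response protein of growth cones, fell from 104, 98.9 and 102 CPM to 72.1, 81.4 and 70.1 CPM (log2 fold change -0.44, SE 0.06, adjusted p = 4.54e-06, edgeR). In both genes BMP-inhibited replicate 2 was the highest of its group and still below every control.

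Mapt, which encodes the axonal microtubule-associated protein tau, was the gene of these 9 that rose. It was at 73.5, 75.4 and 75.9 CPM in controls and 97.6, 121 and 99.0 CPM with BMP inhibitors (log2 fold change 0.50, SE 0.07, adjusted p = 1.04e-05, edgeR), and the highest value was that of BMP-inhibited replicate 2. The dendritic and axonal proteins MAP2 and tau belong to the same family, and their genes moved in opposite directions.

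Tubb3, Crmp1 and Gap43 did not pass. Tubb3, the tubulin gene used to mark neurons, was at 107, 105 and 104 CPM in controls and 94.6, 112 and 102 CPM with BMP inhibitors (adjusted p = 0.616, edgeR). Its log2 fold change of -0.03 had an SE of 0.06, was below 0 under every scaling tried and was at 0.02 without BMP-inhibited replicate 1. Crmp1, a collapsin response protein, was at 76.7, 71.2 and 73.6 and 75.0, 80.8 and 82.5 CPM (log2 fold change 0.11, adjusted p = 0.0878, edgeR) and was called higher without BMP-inhibited replicate 1 (log2 fold change 0.15, adjusted p = 0.0129). Gap43, a growth cone protein, was near 1 CPM, at 1.2, 0.772 and 1.15 and 1.07, 1.57 and 1.43 CPM (log2 fold change 0.39, SE 0.28, adjusted p = 0.232, edgeR). For all 3 genes the libraries of the groups overlapped.

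The neuronal Elav genes encode RNA-binding proteins that stabilise neuronal transcripts, and this pair moved in opposite directions. Elavl3 was at 8.66, 9.60 and 8.44 CPM in controls and 12.1, 10.6 and 11.7 CPM with BMP inhibitors, and rose (log2 fold change 0.37, SE 0.10, adjusted p = 0.00515, edgeR). Elavl4 was at 1.78, 1.71 and 1.15 CPM and 1.07, 0.835 and 0.883 CPM, and fell (log2 fold change -0.74, SE 0.27, adjusted p = 0.0251, edgeR), with 26 to 62 counts per library. The groups did not overlap for either gene. The Elavl4 call was lost without control replicate 1 (log2 fold change -0.63, adjusted p = 0.106), control replicate 2 (-0.67, 0.089), BMP-inhibited replicate 2 (-0.67, 0.0595) or BMP-inhibited replicate 3 (-0.70, 0.0643).

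The promoters of the Elav pair are shown because they share a motif while the genes moved apart. In both, CAGCTG lies close to a RefSeq start, 43 bases before that of Elavl3 and 46 bases before 1 of the 4 starts listed for Elavl4 (62 before another). The stretches are chr9:22052024-22052273 for Elavl3 and chr4:110287528-110287777 for Elavl4, each the 250 bases before the start on the minus strand, 5′ to 3′, with CAGCTG in capitals. Which start the cells used cannot be read from counts per gene.
Elavl3: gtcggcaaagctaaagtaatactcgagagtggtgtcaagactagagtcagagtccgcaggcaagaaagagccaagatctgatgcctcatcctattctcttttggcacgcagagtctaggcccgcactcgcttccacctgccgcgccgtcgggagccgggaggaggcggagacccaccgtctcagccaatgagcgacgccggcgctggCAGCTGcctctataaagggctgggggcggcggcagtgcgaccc
Elavl4: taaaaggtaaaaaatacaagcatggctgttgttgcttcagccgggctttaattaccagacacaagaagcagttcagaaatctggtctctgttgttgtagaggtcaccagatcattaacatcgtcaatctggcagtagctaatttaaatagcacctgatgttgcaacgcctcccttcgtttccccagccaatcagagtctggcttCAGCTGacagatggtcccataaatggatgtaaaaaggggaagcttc

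Neural adhesion genes were lower or did not pass. Ncam1 (ENSMUSG00000039542, GRCm38 chromosome 9, 49502136 to 49798925), the neural cell adhesion molecule, fell from 87.1, 90.8 and 86.5 CPM to 38.8, 50.2 and 37.4 CPM (log2 fold change -1.07, SE 0.08, adjusted p = 2.46e-08, edgeR). Nrcam, of the L1 family that guides axons, fell from 1.29, 1.85 and 1.27 CPM to 0.872, 0.610 and 0.731 CPM (log2 fold change -0.99, SE 0.29, adjusted p = 0.0063, edgeR), with 19 to 67 counts per library. L1cam, the founder of that family, was at 9.01, 10.7 and 12.1 and 10.3, 9.25 and 9.62 CPM, overlapped between the groups and missed the threshold (edgeR adjusted p = 0.361, log2 fold change -0.12, SE 0.11). L1cam shares 1.36% of its exon length with Arhgap4, which fell (log2 fold change -0.97). Antisense exons of Gm11149 cover 4.81% of Ncam1, with 4 control counts and 0 BMP-inhibited ones.

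**Figure D2:**
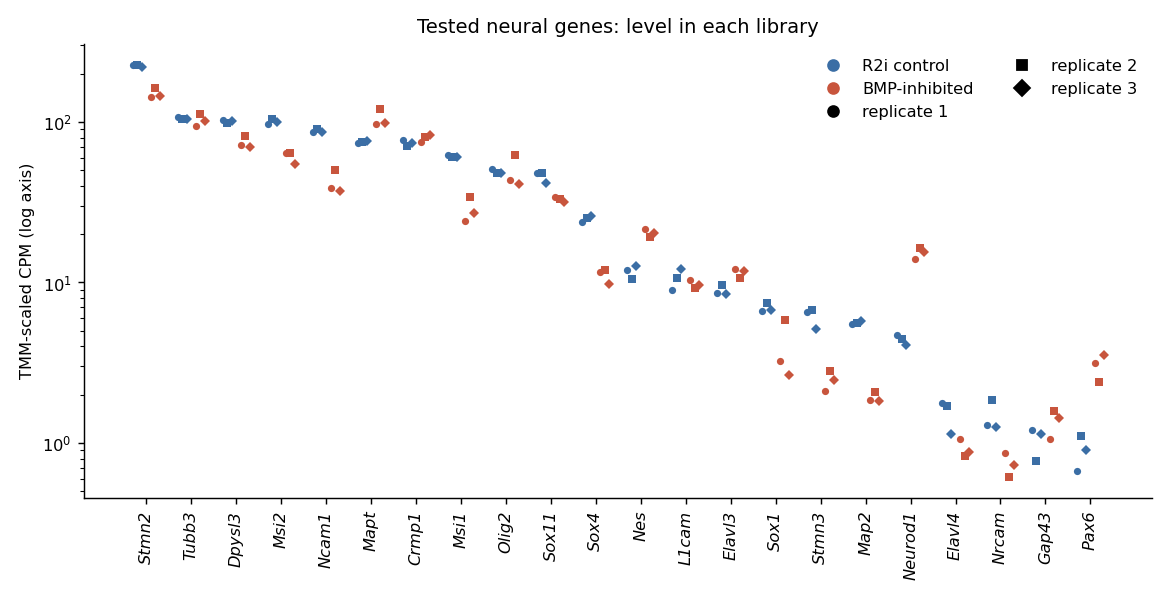
TMM-scaled CPM on a log axis of the 22 tested neural genes in each of the 6 libraries, ordered by control mean; blue points are R2i controls, red points BMP-inhibited, and shapes give the replicate. Stmn2 is the highest gene and Pax6 the lowest in controls, and for Olig2 and Sox1 the red square of replicate 2 stands away from the other red points.

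Compared per kilobase of exon, so that levels of different genes can be set side by side, the neural genes spanned a wide range in stem cells. In controls Tubb3 was highest at 56.3 ± 0.861 CPM per kb (SD, n = 3), followed by Stmn2 at 40.0 ± 0.805, Olig2 at 19.4 ± 0.697 and Dpysl3 at 15.4 ± 0.352. Tubb3 was above 94.3% of the genes tested, and the median of those genes was 4.68 CPM per kb. Next came Msi1 at 10.5 ± 0.177, Crmp1 at 10.5 ± 0.390, Ncam1 at 10.2 ± 0.272, Mapt at 9.95 ± 0.168 and Msi2 at 9.69 ± 0.329, neighbours whose means differed by less than the larger of their SDs. The same held for the neighbours Sox11, Stmn3 and Sox4, at 5.54 ± 0.443, 5.38 ± 0.784 and 5.21 ± 0.232 CPM per kb. The remaining tested genes were below 2 CPM per kb, down to Pax6 at 0.0764 ± 0.0184.

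With BMP inhibitors the top 3 genes in this order were the same, and the middle changed. Tubb3 was at 55.0 ± 4.64, Stmn2 at 26.7 ± 2.00 and Olig2 at 19.4 ± 4.55 CPM per kb. Mapt, at 14.0 ± 1.73, ranked 4 instead of 8, Msi1, at 4.92 ± 0.871, ranked 9 instead of 5, and Neurod1, at 5.61 ± 0.430, ranked 8 instead of 14. Exon lengths are those of all annotated transcripts merged, so genes with long unused exons read too low on this scale.

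BMP-inhibited libraries differed among themselves for these genes, and replicate 2 was most often the highest. That library was the highest of the 3 for 14 of the 22 tested neural genes (63.6%), beside 35.8% of 11567 genes with a mean count of at least 100. It lay on the control side of the mean of replicates 1 and 3 for 15 of the 22 (68.2%), beside 62.3% of the 11567 genes. Replicate 2 was off from the mean of the other replicates by over 0.2 on the log2 scale for 10 of the 22 genes (45.5%). Replicate 1 was so for 7 (31.8%) and replicate 3 for 6 (27.3%), beside 22.6%, 19.6% and 13.7% of the 11567 genes. The 22 genes were not held to the minimum mean count of 100. Pax6, Gap43, Elavl4 and Nrcam were under it, and in each of them replicate 2 was off by over 0.2 (-0.47, 0.35, -0.22 and -0.39). How far counting error adds to these shares was not tested. Over all genes it had a score of 18.5 on principal component 2, which held 5.02% of the variance, where replicates 1 and 3 scored -14.0 and -2.71. Leaving it out gave 5 genes higher and 12 lower of 22, as with all libraries, with Olig2 called lower in place of Elavl4.

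**Figure D3:**
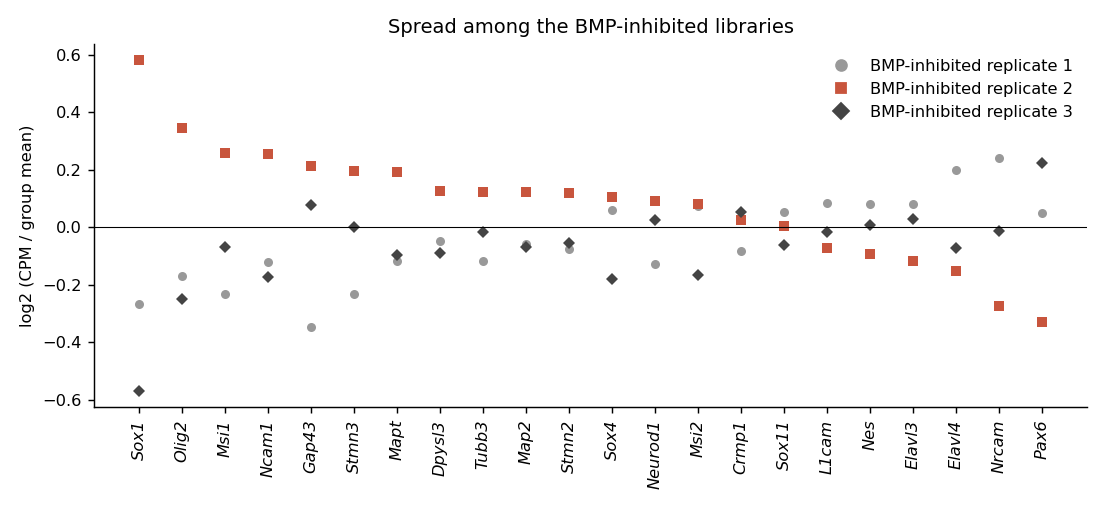
Log2 ratio of each BMP-inhibited library to the mean of its group for the 22 tested neural genes, ordered by how far replicate 2 lies above the other replicates. The red squares of replicate 2 are highest for 14 genes, with Sox1 and Olig2 at the top left, and lowest for 6, with Pax6 at the far right.

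Within some gene families genes were called in opposite directions. Relatives outside the list are described here for comparison. Those that the rule for named genes does not take (Sox3, Stmn4, Elavl2, Dpysl2, Dpysl4, Map6, Tubb2a, Tubb2b and Tubb4a) were chosen after their values were seen. All SoxC genes fell, Sox12 with a log2 fold change of -0.78 (SE 0.06) beside -1.16 for Sox4 and -0.48 for Sox11. In the SoxB1 family, which keeps progenitors undifferentiated, Sox2 went down from 446 ± 7.85 to 374 ± 28.4 CPM (SD, n = 3), at -0.25 on the log2 scale (SE 0.05), and Sox3 did not pass (0.68, SE 0.34). The stathmins Stmn1, Stmn2 and Stmn3 all fell, Stmn1 from 333 ± 7.74 to 189 ± 10.7 CPM (log2 fold change -0.81). Stmn4 was below the count filter, with 0 control counts and 14 BMP-inhibited counts (2, 3 and 9).

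Collapsin response genes divided into 3 that fell and 2 that did not pass. Dpysl4 and Dpysl5 had log2 fold changes of -1.08 (SE 0.11) and -1.18 (SE 0.08), beside -0.44 for Dpysl3, while Crmp1 and Dpysl2 were at 0.11 and 0.09. Among microtubule-associated proteins, Map1b fell (-0.67) as Map2 did, Mapt rose, and Map6 did not pass (-0.04). Beta-tubulins of neurons included Tubb2a and Tubb4a, which rose by 0.54 and 0.63 on the log2 scale, and Tubb2b, at -0.13 (adjusted p = 0.0257, edgeR). In the L1 family Nfasc fell (-1.01, SE 0.11) with Nrcam. Elavl2 did not pass (-0.24, SE 0.12). Differences between relatives were not tested.

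**Figure D4:**
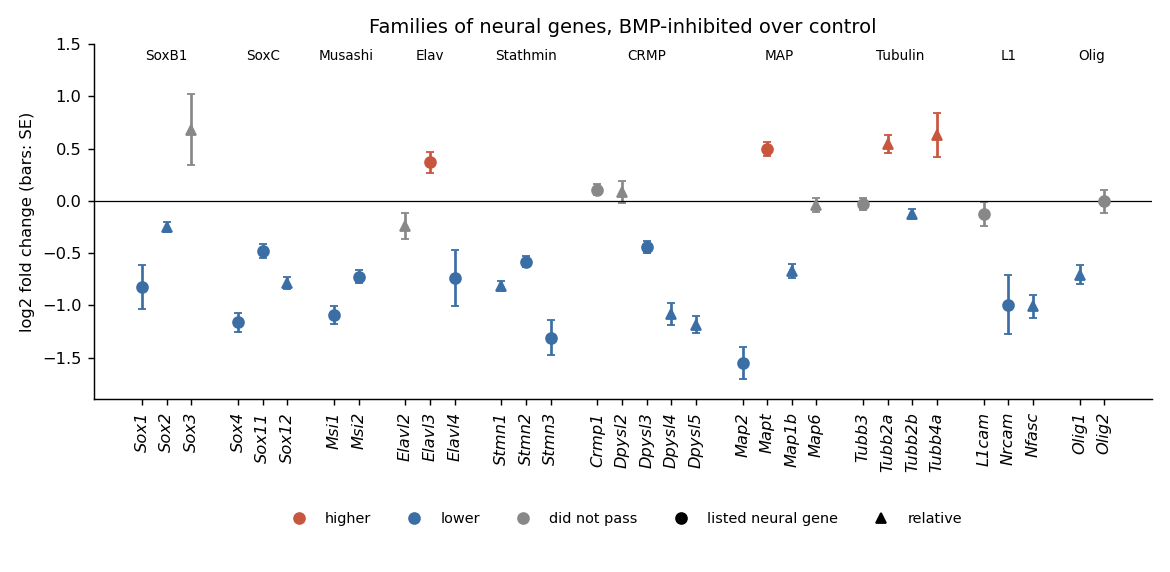
Log2 fold change with SE of listed neural genes (circles) and their tested relatives (triangles) by family, BMP-inhibited over control, coloured by the call at an adjusted p of 0.05. The tested genes of the SoxC, Musashi and Stathmin families lie below 0 throughout, while the Elav, MAP and Tubulin families hold genes on both sides.

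A wider list of 108 other neural genes was read in the same fit. Of these 83 were tested, 37 rose and 28 fell, with a median log2 fold change of 0.14. Of the genes that rose, 4 (Six3, Nkx2-2, Pou3f2 and Lhx5) needed the BMP-inhibited libraries to pass the count filter. Six3, Nkx2-2 and Pou3f2 were under it in every control and could not have been seen as lower. Lhx5 had 9, 19 and 21 counts in controls, so it could have been. Without these 4 genes 33 of 79 rose (41.8%) and 28 fell (35.4%), beside 32.5% and 31.7% of all genes tested. Genes that passed only through the controls were not searched for, and neither kind was taken out of all genes tested. These shares are therefore not on a common footing.

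More of the transcription factors that pattern the neural plate and brain rose than fell. Of 27, 23 were tested, 13 rose (56.5%) and 4 fell (17.4%), or 9 and 4 of 19 without the 4 genes given above. Of all genes tested, 32.5% rose and 31.7% fell. Irx3, En2 and Gbx2, which mark regions of the neural tube and the midbrain and hindbrain, rose by 2.18 (SE 0.22), 1.89 (SE 0.23) and 1.31 (SE 0.16) on the log2 scale. Irx3 reached 3.77 ± 0.794 CPM, En2 4.0 ± 0.662 CPM and Gbx2 11.1 ± 2.86 CPM. The 4 that fell were Sox2, Pou3f1 (-0.81), Zfp521 (-0.73) and Otx2 (-0.21). Six3, a forebrain factor, had 0 to 4 counts per control library and 14 to 31 per BMP-inhibited one.

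Few other proneural and neuronal transcription factors reached testable levels, 5 of 12. Neurog1, a relative of Neurog2, rose from 0.527, 0.414 and 0.362 CPM to 2.16, 2.12 and 2.25 CPM (log2 fold change 2.32, SE 0.27, adjusted p = 1.87e-06, edgeR). Insm1 and Isl1, factors of newborn neurons and endocrine cells, rose by 2.08 (SE 0.31) and 1.53 (SE 0.23), while Sox12 was the gene that fell. Pou4f1 did not pass.

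Repressors that keep neuronal transcripts low in other cells moved in both directions. Rest, which silences neuronal genes, fell from 414, 409.8 and 422 CPM to 350.1, 337 and 320.4 CPM (log2 fold change -0.31, SE 0.04, adjusted p = 1.11e-05, edgeR). Its corepressor gene Rcor2 rose by 0.55 (SE 0.05), and Ptbp1, which blocks neuronal splicing, rose from 658 ± 12.2 to 863 ± 59.5 CPM (0.39, SE 0.05). Hes1, a bHLH repressor related to Hes5, fell from 70.2, 68.8 and 69.1 CPM to 30.6, 40.9 and 31.6 CPM (log2 fold change -1.01, SE 0.08, adjusted p = 4.53e-08, edgeR). Of 8 tested, 3 rose, the third being Ctdspl (1.00), and 4 fell, the others being Ctdsp1 (-0.37) and Ctdsp2 (-0.14). These counts stand beside 32.5% of all genes tested that rose and 31.7% that fell.

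Of 16 cytoskeletal genes tested outside the list, 10 fell and 4 rose, where 31.7% of all genes tested fell and 32.5% rose. Stmn1, Dpysl5 and Map1b, given with their families, were among those that fell, while Basp1, a growth cone protein akin to Gap43, rose from 35.8, 37.9 and 33.4 CPM to 79.6, 101 and 72.5 CPM (log2 fold change 1.24, SE 0.10, adjusted p = 2.04e-08, edgeR). Nefm, a neurofilament subunit, rose by 1.81 (SE 0.19), and with Tubb2a and Tubb4a these are the 4 that rose.

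Guidance and adhesion genes held 4 risers and 2 fallers among 8 tested, where 32.5% of all genes tested rose and 31.7% fell. The ephrin receptor Epha4 rose from 18.7 ± 0.597 to 48.5 ± 6.30 CPM (1.37, SE 0.08) and the semaphorin Sema6a from 1.42 ± 0.309 to 8.75 ± 1.39 CPM (2.61, SE 0.18), with Efnb1 and Cdh2 at 1.15 and 0.92. The guidance ligand Slit2 fell with Nfasc, by a log2 fold change of -1.10 (SE 0.10).

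Splicing, synaptic and glial genes moved in both directions. Of all genes tested, 32.5% rose and 31.7% fell. Of 9 splicing and RNA-binding factors 4 rose (44.4%), Celf4 (0.70), Nova1 (0.64), Rbfox2 (0.26) and Ptbp2 (0.22), and 2 fell (22.2%), Nova2 (-0.38) and Rbfox3 (-0.73). Of 7 synaptic genes 3 rose (42.9%), Syn1 (1.05), Gad1 (1.60) and Grin1 (0.80), and 1 fell (14.3%). The libraries of the groups overlapped for Grin1 and Ptbp2. All 7 glial genes tested were called, beside 64.2% of all genes tested, with 4 lower (57.1%) and 3 higher (42.9%). Slc1a3, Prom1 and Olig1 were lower (-1.08, -0.92 and -0.71) and Aldh1l1, Vim and Mbp higher (0.71, 0.29 and 0.22). The glial and synaptic markers Gfap, S100b, Syt1, Gria2 and Slc17a6 were below the count filter in both groups.

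**Figure D5:**
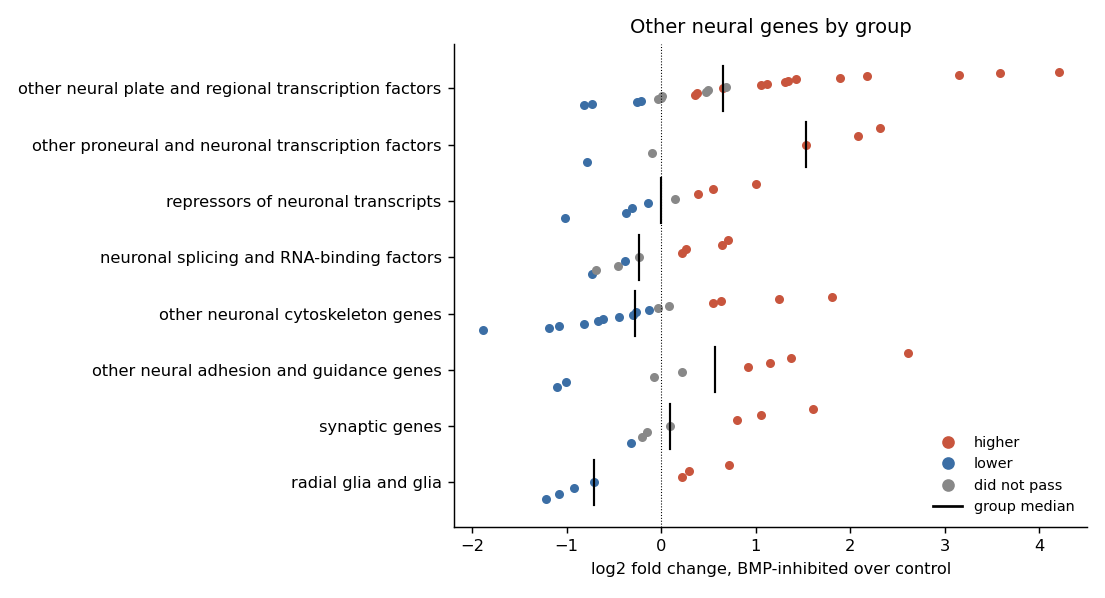
Log2 fold change of 83 tested neural genes outside the list, by group, BMP-inhibited over control; each point is a gene, coloured by the call at an adjusted p of 0.05, and black bars are group medians. The points span -1.88 to 4.20, and the 3 furthest to the right, Nkx2-2, Six3 and Pou3f2, passed the count filter only through the BMP-inhibited libraries.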

How the data were processed

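Raw read counts per gene were deposited by the authors as 1 table per library, per the form of the values (whole numbers with a different total in each library). Tools listed in the submitters' processing notes, with no roles given, are HTSeq 0.9.1, STAR 2.6.1, CASAVA 1.8.2, DESeq2 and cutadapt 1.4.2, on GRCm38.p6. Neither annotation release nor strand setting is given in the sources used here. RNA was poly(A)-selected with a strand-marking kit, per the labels' protocols. The 5 rows that name no gene took 25.6% to 26.4% of reads and were left out.

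Symbols, coordinates and exons came from GENCODE M21 on GRCm38, which matched 53360 of 53465 identifiers and all genes named here. Groups were compared with edgeR 4.0.16 (quasi-likelihood F test, two-sided, TMM scaling to CPM, default count filter with a minimum count of 10 and a total of 15), adjusted by Benjamini-Hochberg at 0.05. An SE is the unshrunk log2 fold change divided by the square root of F. The fit was tested on simulated counts. Alternatives used RLE, upper-quartile or no scaling, DESeq2 1.42.0, limma-voom (limma 3.58.1), other filters, a threshold of 0.01, a replicate block and leaving out each library. BLAST 2.17.0 was used to look for transcripts that copy the 29 genes (90% identity over 50% of the longest transcript); the only match was Sox4 with its antisense gene. Scripts ran in Python 3.11.15 and R 4.3.3.

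The genes, lists and tests were chosen with earlier results of these data known. All 29 genes are named; of the other neural genes each group names up to 4 tested genes with the smallest p and those that account for a count of 5 or fewer, except that a few of these genes are not reported here. The edgeR p-values set the difference between the groups against the spread between libraries within groups. That spread was estimated over both groups and moderated across genes.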

Additional observations from a re-analysis of the deposited data

How the results depend on the processing

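The numbers of neural genes called stayed within 1.5 times those reported under all 15 alternatives, with 5 to 7 higher and 11 to 12 lower. Of 330 gene values (22 genes under 15 alternatives), 323 kept their side of the threshold, 5 lost a call, all of Elavl4 (the fifth at a threshold of 0.01), 2 gained one, and none reversed a call. The extra genes higher were Zic1 and Pax3 with no count filter (adjusted p = 0.0295 and 0.0465, edgeR), Zic1 without control replicate 1 (0.0203), and Zic1 and Crmp1 without BMP-inhibited replicate 1 (0.00871 and 0.0129); with a library left out, the filter needs fewer libraries, and Zic1 then entered only through BMP-inhibited ones and could not have been called lower. Log2 fold changes of Tubb3 ran from -0.10 to 0.02 and of Olig2 from -0.21 to 0.11. With no scaling beyond library totals the median of all genes was -0.06. Leaving out 1 library gave 34 to 38 higher and 25 to 28 lower among the other neural genes and 4670 to 5436 higher and 4597 to 5244 lower among all genes. Id3 also lost its call with library totals only (adjusted p = 0.127) and at 0.01. Pou5f1 was called higher with no count filter (0.0364), with the replicate block (0.0331) and without BMP-inhibited replicate 1 (0.00593).

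With the replicate number as a block, 5 neural genes were higher and 12 lower, with 5149 for all genes called higher and 5061 for all genes called lower. Same-numbered libraries did not deviate together (correlations across genes of -0.052, 0.003 and 0.045 for numbers 1, 2 and 3), and control replicate 1 correlated best with BMP-inhibited replicate 2, so the numbers were not treated as pairs. Depth limits the 7 untested genes.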

Other observations

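Non-coding transcripts named after neural genes, chosen after the data were seen, were read beside those genes. Sox2ot, which overlaps the Sox2 locus, was at 341 counts over the control libraries (125, 104 and 112) and 131 over the BMP-inhibited ones (54, 38 and 39), and fell (log2 fold change -1.25, SE 0.21, adjusted p = 8.86e-05, edgeR), while Sox2 itself had a log2 fold change of -0.25. Otx2os1 had 155 counts in controls (58, 44 and 53) and 76 with BMP inhibitors (23, 29 and 24), and fell (log2 fold change -0.90, SE 0.27, adjusted p = 0.00822), beside -0.21 for Otx2. Six3os1 was at 146 and 107 counts and did not pass (log2 fold change -0.32, adjusted p = 0.273), while Six3 went from 5 counts over the controls to 59. Srrm4os, at 11.5 ± 1.19 and 11.6 ± 1.68 CPM (SD, n = 3), did not pass either (log2 fold change 0.01), and Srrm4 was at -0.69 (adjusted p = 0.0513). Sox1ot and Pax6os1, named after listed genes, had 7 and 2 counts and 0 and 0 counts in the control and BMP-inhibited libraries. Whether these counts hold reads of the opposite strand was not tested.

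Neural crest markers were mostly at low levels. Tfap2a rose from 1.90, 2.48 and 2.62 CPM to 7.20, 4.94 and 6.61 CPM (log2 fold change 1.42, SE 0.18, adjusted p = 4.63e-06, edgeR). Foxd3, which pluripotent cells also express, rose from 30.4 ± 2.20 to 39.5 ± 4.93 CPM (SD, n = 3). Sox10 rose from 0.397 ± 0.163 to 0.788 ± 0.137 CPM (adjusted p = 0.0295, edgeR). It had 10 to 20 counts per control library, near the minimum count of 10 of the filter. Snai2, Ets1 and Twist1 did not pass, and Tfap2b had 2 counts over all 6 libraries.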
